A study of Plutella xylostella with 6 samples.

Results

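Argonaute proteins carry small RNAs to matching transcripts. The family has an Argonaute branch, whose members are loaded with small interfering RNAs or microRNAs, and a PIWI branch, whose members are loaded with PIWI-interacting RNAs (piRNAs). In Drosophila, Argonaute-2 cleaves transcripts that match small interfering RNAs cut from double-stranded RNA, including that of viruses, whereas Piwi and Aubergine silence transposons, mainly in the germ line. Here the expression of 6 genes of this family was followed in larvae of the diamondback moth Plutella xylostella. They were chosen by their descriptions in the deposited annotation, and make up 7 of the 21946 rows of the table. The Argonaute branch has 4 genes, LOC105389297 (protein argonaute-2) and LOC105394053, LOC105383281 and LOC105384726 (each protein argonaute-2-like). The PIWI branch has LOC105391798 (piwi-like protein 1) and LOC105397264 (protein aubergine-like). An assembled locus with no description carries the symbol LOC105391798 as well, and is the seventh row. All rows described as argonaute, piwi or aubergine are among these genes. The annotation names do not tell which Argonaute protein binds small interfering RNAs and which binds microRNAs.

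RNA of whole larvae of the second instar was sequenced after 12 hr in 3 libraries of larvae given DMNT, a volatile homoterpene of plants, and in 3 control libraries. The methods describe DMNT in forage with the solvent paraffin oil as the control for the bioassays, with a common dose for them, and do not state the dose for the sequenced larvae separately. The total count was 39853422 to 54671573 in DMNT libraries and 49553028 to 56381123 in control libraries. The sources used here do not say how many larvae stand behind a library or whether libraries came from separate cultures, and the p-values below measure only the spread between these libraries. In whole-body RNA, fewer cells of a type and less RNA per cell cannot be told apart. The helicase vasa (LOC105398159), a defining gene of the germ line, was at 32.58 to 43.36 FPKM in DMNT libraries and 29.6 to 36.66 FPKM in control libraries, and of 14 genes of yolk and eggshell, which summed to 2.11 to 4.04 FPKM in DMNT libraries and 2.18 to 3.33 FPKM in control libraries, only 1 passed the filter on low levels. Levels are given in FPKM, which are fragments scaled by exon length and by mapped reads. Differences are log2 fold changes (log2FC) of counts with their standard errors (SE), taken from edgeR's quasi-likelihood fit of the 17709 rows that averaged 0.5 FPKM or more, and all 7 rows passed that filter. A gene is said to rise or fall where it passed the study's own thresholds, which ask for a log2FC of 1 or more in size together with an unadjusted p below 0.05.

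The aubergine-like gene was the most abundant of the family and the piwi-like gene the least. Over all libraries the mean level was 41.2 FPKM for LOC105397264, higher than 90.8% of the rows tested, and 1.16 FPKM for LOC105391798, higher than 13.1% of them. Between these lay the 4 Argonaute genes, with LOC105394053 at 17.8 FPKM, LOC105384726 at 8.63 FPKM, LOC105389297 at 6.72 FPKM and LOC105383281 at 6.31 FPKM. The steps from LOC105397264 to LOC105394053, from LOC105394053 to LOC105384726 and from LOC105383281 to LOC105391798 were seen in 6 of 6 libraries. The order of LOC105384726, LOC105389297 and LOC105383281 was not stable. LOC105384726 was above LOC105389297 in only 4 of 6 libraries, and LOC105389297 above LOC105383281 in only 4 of 6. The order of the Argonaute genes holds for FPKM only, since their lengths differ. In scaled counts (CPM), LOC105389297, about 7.56 kb long, was the highest of them, averaging 51.14 in DMNT and 49.95 in control libraries. LOC105394053, about 1.26 kb long, averaged 17.18 and 26.99 CPM. Among the 6 genes, the aubergine-like gene was highest and the piwi-like gene lowest in mean CPM as well. The aubergine-like gene made up 56.0% of the summed FPKM of the family in DMNT libraries and 45.8% in control libraries.

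**Figure D1:**
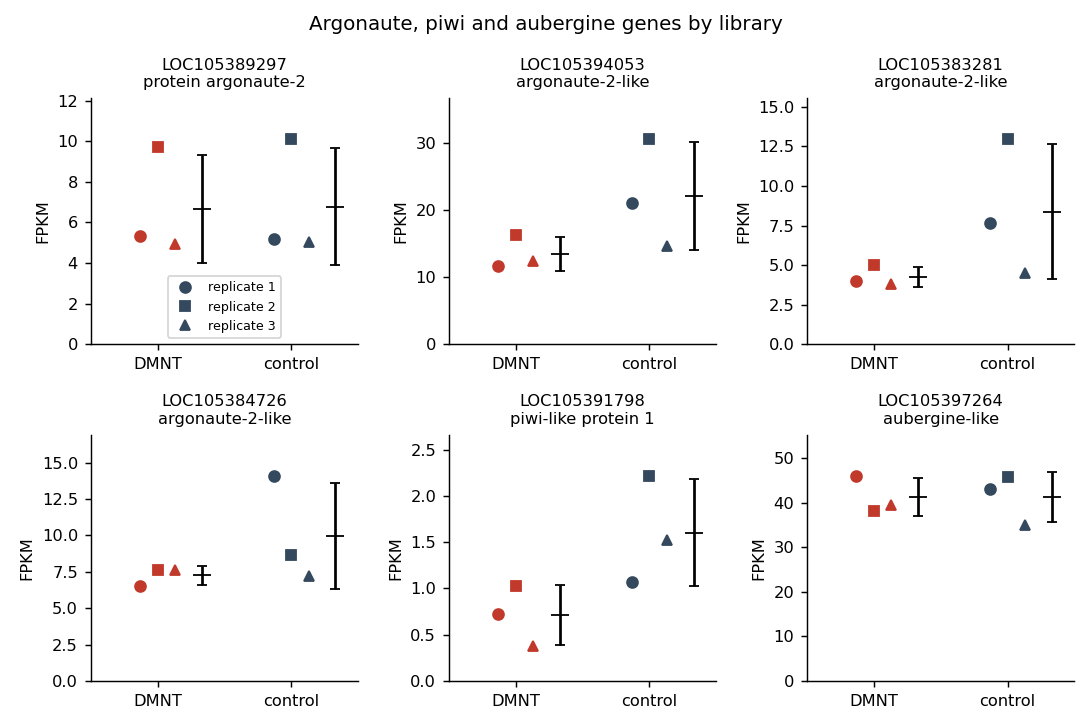
FPKM of each gene in each library, DMNT left and control right, with a marker shape for each replicate number and the mean with SD (n = 3) beside the points. The piwi-like gene is the only one whose groups do not overlap, at 0.38 to 1.03 FPKM in DMNT libraries and 1.07 to 2.22 FPKM in control libraries.

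After 12 hr of DMNT, 1 of the 6 genes, the piwi-like gene, fell, and 0 rose. Over all rows tested 0.87% passed the thresholds, 0.503% as lower and 0.367% as higher. At an unadjusted p under 0.05 there were 3 of the 6 genes, all lower, LOC105391798, LOC105383281 and LOC105394053. Over all rows 3.43% were at that p and 1.68% were lower at it. LOC105383281 and LOC105394053 moved almost together over the libraries, so they are not separate observations. Without control replicate 2 their unadjusted p in edgeR was 0.0789 and 0.122. By DESeq2 the piwi-like gene was likewise the only 1 of the 6 past the thresholds. None of the 6 genes had a Benjamini-Hochberg adjusted p under 0.05 in edgeR, and each stood at 0.9999. The median log2FC over all rows tested was -0.0032.

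The piwi-like gene LOC105391798 belongs to the proteins that are guided by piRNAs. Its counts were 238, 394 and 107 in DMNT libraries 1, 2 and 3, against 422, 772 and 569 in control libraries 1, 2 and 3. In FPKM these were 0.72, 1.03 and 0.38 in DMNT libraries and 1.07, 2.22 and 1.52 in control libraries. All DMNT values lay below all control values, though the highest DMNT library and the lowest control library were close. It was the only 1 of the 6 genes without overlap, where 8.37% of all rows tested had groups that do not overlap and 4.12% had them with DMNT lower. The gene averaged 0.71 ± 0.325 FPKM in DMNT libraries and 1.60 ± 0.58 FPKM in control libraries (SD, n = 3 each). Its log2FC was -1.12 (SE 0.37, 95% interval -1.98 to -0.27), a level 2.18-fold lower in DMNT libraries (edgeR, unadjusted p = 0.0165, adjusted p = 0.9999). The call depended on single libraries, with a log2FC of -0.88 without control replicate 2 and of -0.84 without DMNT replicate 3, both too small for the call. On the log2(FPKM + 1) scale, which understates the change of a gene at this level, limma gave -0.60.

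The unnamed assembled locus with the symbol LOC105391798, numbered directly before the piwi-like gene in the assembly, had counts of 246, 202 and 83 in DMNT libraries, against 267, 236 and 243 in control libraries. Control libraries were alike at 5.12 to 5.35 FPKM, and DMNT libraries ranged from 2.34 to 5.86 FPKM on both sides of them. DMNT library 3 was the lowest for this locus as well as for the piwi-like gene. The log2FC of the locus was -0.31 (SE 0.31), and it did not pass the thresholds. Summed over both rows, the scaled counts were 10.39, 10.89 and 4.955 CPM in DMNT libraries and 12.02, 19.04 and 15.82 CPM in control libraries. The summed groups did not overlap either, with a difference of -0.90 in mean log2 CPM (exact permutation test, two-sided, p = 0.1, the smallest p that 3 libraries against 3 allow).

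The aubergine-like gene LOC105397264, the other PIWI protein, stood apart from the piwi-like gene in its small spread. It was at 46.02, 38.2 and 39.34 FPKM in DMNT libraries 1, 2 and 3, against 42.97, 45.83 and 34.98 FPKM in control libraries 1, 2 and 3. The groups overlapped fully, the highest and lowest libraries differing by 1.32 times, while for the piwi-like gene they differed by 5.84 times. The log2FC was 0.05 (SE 0.14), and its 95% interval of -0.26 to 0.37 does not hold a change of 2-fold in either direction. The sign of this small value was negative (-0.02 and -0.03) without control replicate 3 and without DMNT replicate 1.

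The ratio of aubergine-like to piwi-like FPKM was 63.9, 37.1 and 104 in DMNT libraries and 40.2, 20.6 and 23.0 in control libraries. DMNT library 2 lay within the control range, so the groups overlapped. The difference between the responses of these genes was 1.23 in mean log2 ratio (two-sided exact permutation p = 0.2, with 0.1 the smallest it can reach).

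**Figure D2:**
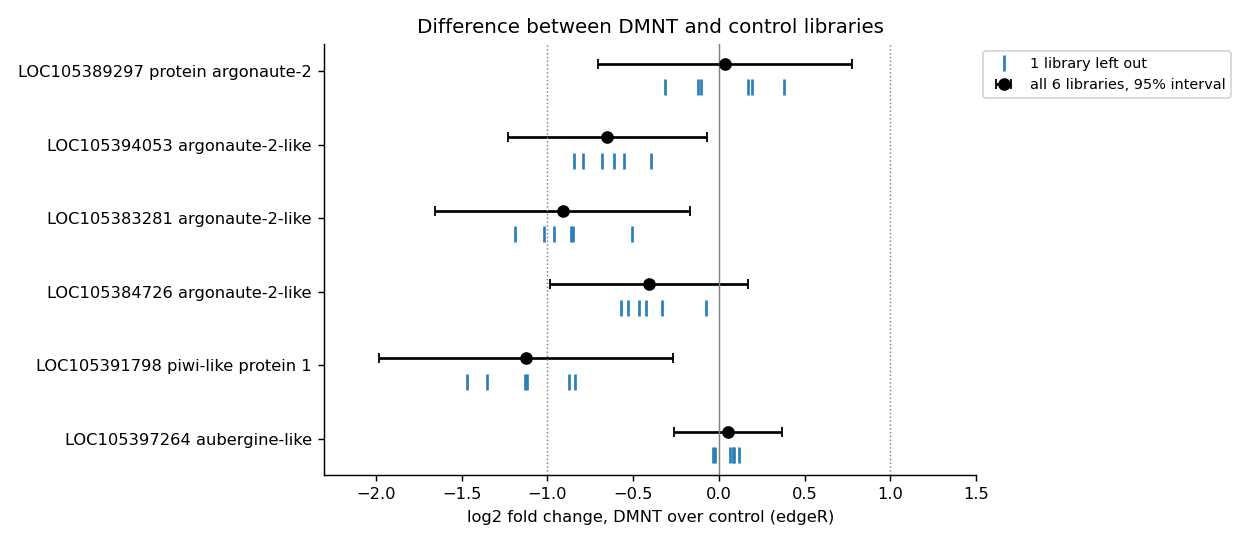
Log2FC of DMNT over control for each gene from edgeR, with its 95% interval (black), and the values with 1 library left out (blue). Dotted lines mark the fold threshold of 1 in size. The interval of the aubergine-like gene (-0.26 to 0.37) is the narrowest. Those of the piwi-like gene (-1.98 to -0.27), LOC105383281 (-1.655 to -0.168) and LOC105394053 (-1.231 to -0.071) cross the lower threshold line.

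In the Argonaute branch, 0 of 4 genes passed the thresholds. For 3 of them the log2FC was -0.41 or lower, and in each of those 3 the DMNT libraries were close together while the control libraries spread widely. The fourth, LOC105389297, had a log2FC of 0.03 and was highest in library 2 of both groups.

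LOC105383281 (protein argonaute-2-like) was at 3.97, 4.98 and 3.78 FPKM in DMNT libraries 1, 2 and 3, against 7.68, 12.97 and 4.49 FPKM in control libraries 1, 2 and 3. Control library 2 was the highest, and control library 3 lay within the DMNT range. The log2FC was -0.91 (SE 0.32, 95% interval -1.65 to -0.17, edgeR unadjusted p = 0.0223, adjusted p = 0.9999), just under the fold threshold. Without control replicate 2 it was -0.51. Without control replicate 3 or DMNT replicate 2 it was -1.19 and -1.02, and the gene then passed.

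LOC105394053 (protein argonaute-2-like) was at 11.63, 16.32 and 12.42 FPKM in DMNT libraries, against 20.99, 30.6 and 14.67 FPKM in control libraries. Control library 3 again lay within the DMNT range. The gene averaged 13.5 ± 2.51 FPKM in DMNT libraries and 22.1 ± 8.02 FPKM in control libraries (SD, n = 3 each), a log2FC of -0.65 (SE 0.25, edgeR unadjusted p = 0.0322, adjusted p = 0.9999), and of -0.39 without control replicate 2.

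LOC105394053 and LOC105383281 moved almost together. Centred on their own means, their log2 CPM differed by a root mean square of 0.175 over the 6 libraries. This was the smallest value among the pairs of these genes, while the other pairs of the 4 Argonaute genes differed by 0.396 to 0.592. Among 7263 other described genes the nearest came closer still, at 0.097 for LOC105394053 and 0.0991 for LOC105383281. The FPKM of LOC105394053 was 2.93, 3.28 and 3.29 times that of LOC105383281 in DMNT libraries and 2.73, 2.36 and 3.27 times in control libraries. By counts and FPKM, LOC105394053 is about 1.26 kb long, against about 3.5 kb for LOC105383281 and 2.73 kb for LOC105384726. Its deposited gene ontology terms name the extracellular space and the cuticle, which is not what its description says. These 2 genes are also the members whose symbols do not occur in a newer RefSeq annotation of the species (assembly ilPluXylo3.1), where the other 4 do. Reads shared between these similarly described genes cannot be told apart in the table, and their part in the likeness was not tested.

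LOC105384726 (protein argonaute-2-like) was at 6.52, 7.64 and 7.64 FPKM in DMNT libraries, against 14.11, 8.67 and 7.2 FPKM in control libraries. Here control library 1 alone was high, control library 2 was slightly above the DMNT range and control library 3 within it. The log2FC was -0.41 (SE 0.25, 95% interval -0.98 to 0.17), and -0.07 without control replicate 1. LOC105384726 and LOC105383281 carry the same 27 gene ontology terms, among them siRNA binding and the defense against viruses, yet control library 2 was the highest for LOC105383281 and control library 1 for LOC105384726.

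LOC105389297 (protein argonaute-2) was at 5.33, 9.72 and 4.95 FPKM in DMNT libraries 1, 2 and 3, against 5.2, 10.11 and 5.04 FPKM in control libraries 1, 2 and 3. Library 2 was by far the highest in each group, and at the same number the groups differed by 0.08, 0.04 and -0.02 in log2 CPM. The log2FC was 0.03 (SE 0.32, 95% interval -0.71 to 0.78), with a sign that turned with the library left out (-0.32 without DMNT replicate 2 and 0.38 without control replicate 2) and with limma on FPKM (-0.02).

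The 3 argonaute-2-like genes had SDs of 0.14 to 0.24 in log2 CPM among DMNT libraries and of 0.45 to 0.69 among control libraries, where the median row tested had 0.279 among DMNT libraries and 0.264 among control libraries. Control library 3 lay within the DMNT range for each of them. The lower averages of LOC105383281 and LOC105394053 in DMNT libraries depended most on control library 2. Their log2FCs were -0.505 and -0.394 without control replicate 2, and -0.961 and -0.681 without control replicate 1. That of LOC105384726 depended on control library 1, at -0.075 without control replicate 1 and -0.531 without control replicate 2.

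**Figure D3:**
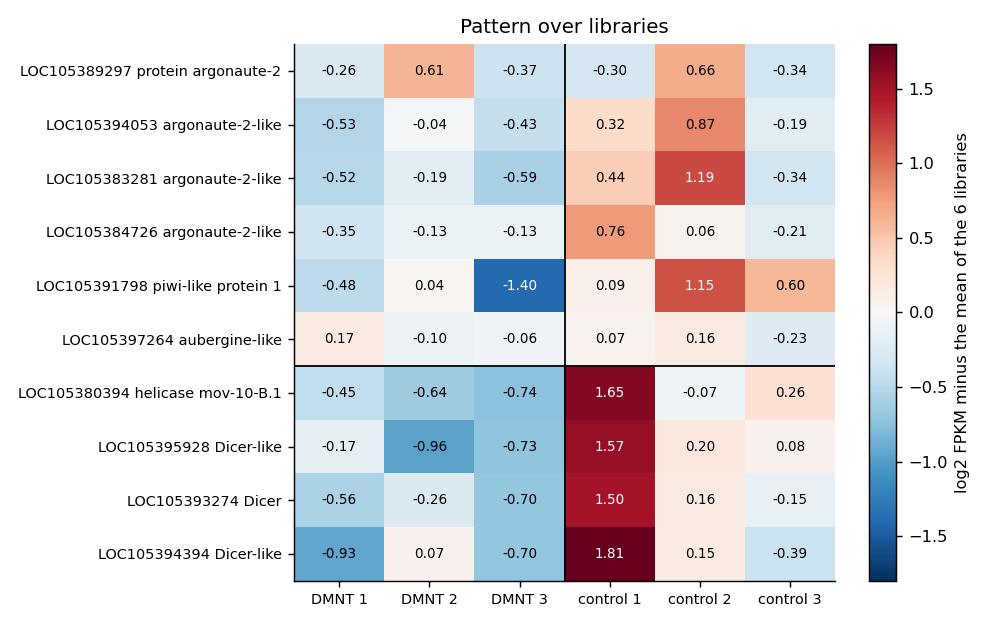
Log2 FPKM of each gene minus its mean over the 6 libraries, for the family (above the line) and for mov-10 and Dicer genes (below it), DMNT libraries left. LOC105394053 and LOC105383281 are highest in control library 2 (0.87 and 1.19), LOC105384726 and the Dicer and mov-10 genes in control library 1 (0.76 for LOC105384726), and LOC105389297 in library 2 of both groups (0.61 in DMNT and 0.66 in control).

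Set side by side, the summed PIWI genes had similar averages in both groups, and the summed Argonaute genes were lower on average in DMNT libraries. The 4 Argonaute genes summed to 27.45, 38.66 and 28.79 FPKM in DMNT libraries and 47.98, 62.35 and 31.4 FPKM in control libraries. The PIWI genes summed to 46.74, 39.23 and 39.72 FPKM in DMNT libraries and 44.04, 48.05 and 36.5 FPKM in control libraries. This sum is almost only the aubergine-like gene, on average 41.2 of 41.9 FPKM in DMNT libraries and 41.3 of 42.9 FPKM in control libraries. It therefore does not show the piwi-like gene, the only 1 of the 6 genes that fell, while 0 of 4 Argonaute genes passed the thresholds. The Argonaute share of the family was 42.9 ± 6.34% in DMNT libraries and 51.6 ± 5.17% in control libraries (SD, n = 3 each). The share was 49.6% in DMNT library 2 and 46.2% in control library 3, so the groups overlapped. The sums hold the genes as annotated, and without LOC105394053 the Argonaute genes summed to 18.2 ± 3.62 FPKM in DMNT libraries and 25.2 ± 7.68 FPKM in control libraries (SD, n = 3 each). No test was made of the sums, since the members were chosen.

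**Figure D4:**
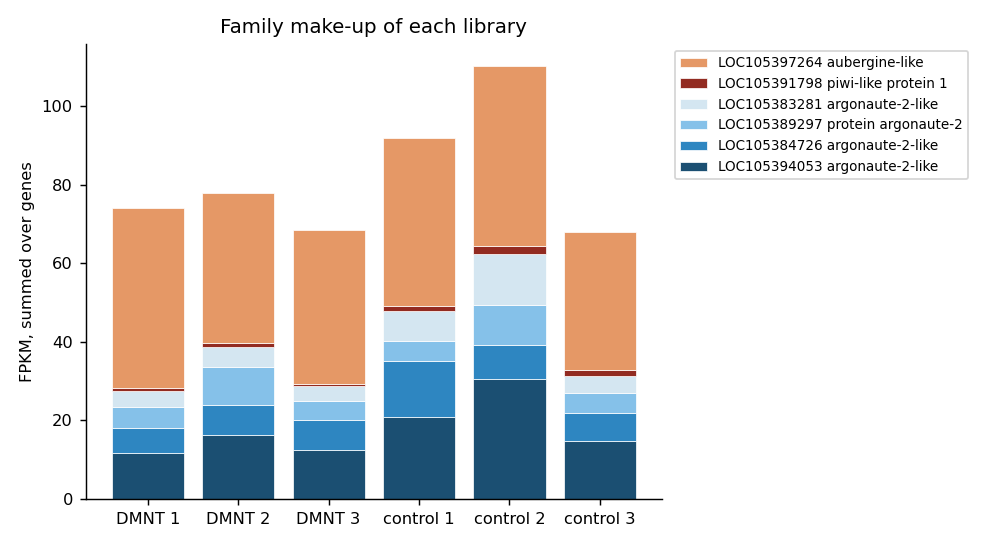
Summed FPKM of the family in each library, DMNT libraries left, with Argonaute genes in blues and PIWI genes in red and orange. The orange block of the aubergine-like gene stays between 34.98 and 46.02 FPKM in all libraries, and the blue blocks range from 27.45 FPKM in DMNT library 1 to 62.35 FPKM in control library 2.

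The other genes of the small RNA pathways were taken from lists of words in the descriptions. Of 10 tested genes on the list for small interfering RNAs, 3 fell and 0 rose, where 0.503% of all rows fell. The list's median log2FC was -0.25. Dicer and mov-10 genes were placed on this list alone, and their names do not tell which small RNAs they serve. The 3 were the putative helicase mov-10-B.1 (LOC105380394), related to Armitage of Drosophila, Dicer (LOC105393274) and a Dicer-like gene (LOC105395928), whose enzymes cut double-stranded RNA into small RNAs. All 3 had groups without overlap, as had 8.37% of all rows in either direction and 4.12% with DMNT lower. A further Dicer-like gene, LOC105394394, did not pass, with a log2FC of -1.245 (SE 0.551, edgeR unadjusted p = 0.0537, adjusted p = 0.9999). Its groups overlapped, with DMNT library 2 at 1.75 FPKM and control library 3 at 1.27 FPKM. Mov-10-B.1 was at 6.17, 5.41 and 5.04 FPKM in DMNT libraries and at 26.39, 8.02 and 10.06 FPKM in control libraries, a log2FC of -1.37 (SE 0.42). Dicer LOC105393274 was at 1.02, 1.26 and 0.93 FPKM in DMNT libraries and at 4.27, 1.69 and 1.36 FPKM in control libraries, with a log2FC of -1.13 (SE 0.41). The Dicer-like LOC105395928 was at 0.59, 0.34 and 0.4 FPKM in DMNT libraries and at 1.97, 0.76 and 0.7 FPKM in control libraries, with a log2FC of -1.30 (SE 0.46). Control library 1 was the highest for each of these, as for LOC105384726, and without control replicate 1 the values were -0.67 for mov-10-B.1, -0.46 for LOC105393274 and -0.66 for LOC105395928, so that 0 of the 3 passed. Other libraries mattered as well, since LOC105393274 was not called without DMNT replicate 1 (-1.10) or DMNT replicate 3 (-1.06), and LOC105395928 was not called without DMNT replicate 2 (-1.13) or DMNT replicate 3 (-1.25). LOC105393274 also failed with limma on log2(FPKM + 0.1) (-0.95) and in a fit blocked by replicate number (-0.95). The staphylococcal nuclease domain protein 1 (LOC105384214), known as Tudor-SN and a part of the silencing complex in Drosophila, was at 52.8 ± 10.9 FPKM in DMNT libraries and 56.8 ± 11.1 FPKM in control libraries (SD, n = 3 each), a log2FC of -0.05 (SE 0.18).

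Of 10 tested genes on the microRNA list, which holds no Dicer, 0 passed in either direction. Of the same genes 0 had an unadjusted p under 0.05 in edgeR, and their median was -0.02. The ribonuclease 3-like gene LOC105385704, named like Drosha, which cuts primary microRNAs, had a log2FC of -0.38 (SE 0.25), and the microprocessor subunits LOC105385273 and LOC105388373, named like the Drosha partner DGCR8, had -0.31 (SE 0.22) and 0.32 (SE 0.26). PAN2 (LOC105393784), which shortens poly(A) tails, had 0.39 (SE 0.34).

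Of 23 tested genes on the piRNA list 0 passed and 0 had an unadjusted p under 0.05 in edgeR. By sign, 11 had a log2FC above 0 and 12 below it, and the list's median was -0.01. The list holds no mov-10 gene. It includes genes with names not particular to piRNAs, such as nuclear RNA export factor 1 (LOC105390909), PARN-like (LOC105394287) and tudor domain-containing protein 3-like (LOC105397972). The helicase spindle-E (LOC105382401), needed for piRNA production in Drosophila, was at 1.83 ± 0.202 FPKM in DMNT libraries and 2.49 ± 0.55 FPKM in control libraries (SD, n = 3 each), a log2FC of -0.39 (SE 0.19, edgeR unadjusted p = 0.0703, adjusted p = 0.9999). The helicase vasa (LOC105398159), which works with Aubergine in Drosophila germ cells, had a log2FC of 0.23 (SE 0.15). A mitochondrial cardiolipin hydrolase-like gene (LOC105389891), named like the piRNA nuclease Zucchini, had 0.72 (SE 0.44), and tudor domain-containing protein 5-like (LOC105393831) had -0.66 (SE 0.51).

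Genes of a germ line list and of a testis list, drawn by words in the descriptions, were set beside the piwi-like gene. A tudor name alone does not mark germ cells, so the first list is not a list of established markers. Of the 9 tested genes on the germ line list, 8 are also on the piRNA list, so that these lists are not separate. Of these 9 genes 0 passed and 0 had an unadjusted p under 0.05 in edgeR, 4 had a log2FC above 0 and 5 below it. Their summed level was 60.39 to 71.53 FPKM in DMNT libraries and 53.41 to 74.18 FPKM in control libraries. Besides vasa and tudor domain-containing protein 5-like, the lowest p belonged to tudor domain-containing protein 3-like (LOC105397972, log2FC 0.11, SE 0.15) and a tudor and KH domain-containing protein (LOC105394460, log2FC -0.19, SE 0.28). Of 47 tested genes of testis and sperm axoneme 0 passed. An unadjusted p under 0.05 in edgeR was reached by 6 of the 47, against 3.43% of all rows. The log2FC was above 0 for 35 of the 47 and below 0 for 12, where 50.6% of all rows were below 0. The median of the 47 genes was 0.20. They summed to 219.5 to 267.5 FPKM in DMNT libraries and 198.5 to 240.7 FPKM in control libraries. Their groups did not overlap in 9 of 47 genes, all higher in DMNT libraries, where 4.25% of all rows were higher in this way. Dynein heavy chain 1 (LOC105385858) and dynein heavy chain 3 (LOC105398512), motors of the axoneme, had log2FCs of 0.69 (SE 0.23) and 0.88 (SE 0.33), at means under 1 FPKM. A sperm-tail repeat protein (LOC105387095) and an axonemal dynein intermediate chain (LOC105398355) had 0.59 (SE 0.23) and 0.48 (SE 0.19). The part of germ cell number in the level of the piwi-like gene was not tested.

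Transposons are the targets of piRNAs, and 23 rows described by transposon-derived proteins were tested. Of these, 1 fell and 0 rose, where 0.503% of all rows fell and 0.367% rose, and the median was -0.08. The gene that fell was LOC105381593, tigger transposable element-derived protein 6-like, at 32.81, 8.24 and 10.3 FPKM in DMNT libraries and 41.69, 41.45 and 36.22 FPKM in control libraries. All DMNT libraries lay below all control libraries, DMNT library 1 close to them and the others far below, and 4.12% of all rows were separated in this direction. The log2FC was -1.17 (SE 0.47). The gene was no longer called when DMNT replicate 2 (-0.83), DMNT replicate 3 (-0.92) or any 1 of the control libraries (-1.13, -1.18 and -1.19) was left out. Without DMNT replicate 1 the value was -2.04 and the gene was called. All 23 rows summed to 161.3, 162.8 and 133.9 FPKM in DMNT libraries and 189.7, 180.7 and 186.0 FPKM in control libraries, with no overlap. Without LOC105381593 they summed to 128.5, 154.6 and 123.6 FPKM in DMNT libraries and 148.0, 139.2 and 149.8 FPKM in control libraries, and the groups overlapped. The other 7 tigger rows had log2FCs between -0.15 and -0.08, and as their levels run side by side they may share reads. For 14 rows named after the mobile element jockey, the values ran from -0.42 to 0.41, with a median of 0.01. The jockey rows summed to 39.9, 54.27 and 48.85 FPKM in DMNT libraries and 41.72, 51.77 and 51.28 FPKM in control libraries, in overlapping groups. The libraries were made from poly(A) RNA, so piRNAs themselves were not measured.

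**Figure D5:**
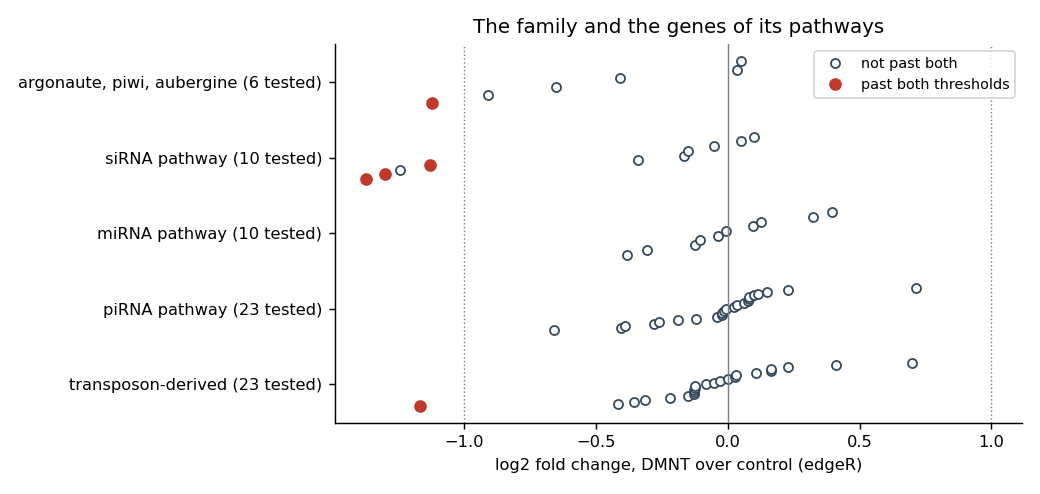
Log2FC of DMNT over control for the family and for tested genes of the siRNA, miRNA and piRNA pathways and transposon-derived genes, with genes past both thresholds in red. The red points are 1 gene of the family (-1.12), 3 of the siRNA list (-1.37 to -1.13) and 1 transposon-derived gene (-1.17). The miRNA and piRNA lists hold none, but Dicer and mov-10 genes were placed on the siRNA list alone.

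The likeness of other genes to each member was measured by the root mean square difference of centred log2 CPM over the 6 libraries, among 7263 described genes with a mean of at least 2 FPKM. Closest to LOC105389297 were a thioredoxin-related transmembrane protein (LOC105385101, 0.0568) and Pur-alpha (LOC105390876, 0.0806). Closest to LOC105394053 were an SNF-related kinase (LOC105393994, 0.097) and a probable 4-coumarate--CoA ligase 3 (LOC105397514, 0.101), and the same ligase (0.222) came after Spindly-B-like (LOC105382153, 0.0991) for LOC105383281. For LOC105384726 they were SEC14-like protein 2 (LOC105391517, 0.102) and a venom protease-like gene (LOC105386435, 0.115). The piwi-like gene had a beta-1,3-glucan-binding protein-like gene (LOC105390015) at 0.238 and an ester hydrolase (LOC105394473) at 0.24, and the aubergine-like gene had BCL9 (LOC105391989) at 0.0325 and a bisphosphate nucleotidase (LOC105382380) at 0.033. Over all candidates the median difference ran from 0.237 for the aubergine-like gene to 0.783 for the piwi-like gene, and the measure grows with the spread of the gene itself. The 6 libraries share groups and depths with every gene compared, so these values are a description.

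In the deposited annotation, 5 of the 6 genes are placed in the KEGG pathway of dorso-ventral axis formation, which holds 121 rows of the table and 95 of those tested, and LOC105394053 is not among them. The piwi-like and aubergine-like genes share an orthology entry, and the piwi-like gene carries the terms of piRNA binding and of repression of transposition, while the aubergine-like gene carries 0 gene ontology terms.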

How the data were processed

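Samples were grouped by their titles. Per the methods, the authors trimmed reads by cutadapt, mapped them by Hisat on an NCBI genome of the species, built genes by StringTie and compared groups by edgeR. Not given in the sources used here are versions, the counting program and its use of strand. Overlapping genes may therefore share reads. The deposited read counts are not normalized, and the authors' FPKM are relative to exon length and mapped reads.

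Rows averaging under 0.5 FPKM were dropped, which left 17709 of 21946. The counts went through TMM and edgeR 4.0.16 (R 4.3.3) with group as the only term, and Benjamini-Hochberg adjustment took in every row tested. CPM are TMM-scaled. SE is the size of log2FC over the root of F, and intervals are 95%. Lengths were computed from counts, FPKM and totals. No library repeated another (15 pairs, mean chi-square per gene 46.4 to 127, where 1 is sampling alone).

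The members, lists and alternatives were chosen with earlier results of these data known. Named are all members, each list's genes past the thresholds (otherwise the 4 of lowest p) and the 2 genes most like each member. Tudor-SN and the Dicer-like LOC105394394 were added after their values were seen, and false word matches were removed from the lists after the table was seen. In simulated counts of this comparison (17709 genes), 96% of genes lowered by 2 and 44% of those lowered by 1 on the log2 scale passed. Of unchanged genes 1.43% passed, where 0.87% of all rows passed in the data. The changed genes were drawn from rows averaging at least 2 FPKM, so these shares do not hold for the piwi-like gene at 1.16 FPKM. Alternatives were other filters, median-ratio scaling, DESeq2 1.42.0, limma 3.58.1 on log2(FPKM + 0.1) or log2(FPKM + 1), a replicate block and leaving out each library.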

Additional observations from a re-analysis of the deposited data

How the results depend on the processing

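With limma on log2(FPKM + 1), 0 of the 6 genes fell and 22 rows of the table rose, where edgeR gave 1 and 65, and 1 other small RNA pathway gene fell in place of 3. With no filter 147 rows fell in place of 89, and 5 other small RNA pathway genes fell. Leaving out 1 library gave 0 to 2 of the 6 genes lower, 79 to 167 rows lower and 61 to 128 higher in the whole table, and 0 to 5 other small RNA pathway genes lower. LOC105389297 was at -0.0156 and -0.0144 with limma on log2(FPKM + 0.1) and log2(FPKM + 1), and at -0.32 to 0.38 with 1 library left out, and LOC105397264 at -0.0329 to 0.117. The cause of these changes was not tested. Deviations from the group means of libraries with the same number correlated by 0.0567, 0.0415 and 0.0605, and those of other pairs by -0.0663 to 0.0155. Values this small do not settle whether the numbers pair the samples. Each library correlated best with its own number, as a hint only. With the number as a block the piwi-like gene was at -1.16 and still the only 1 of the 6 genes past the thresholds, while 101 rows fell and 77 rose. Dicer LOC105393274 (-0.95) no longer passed. The lowest counts behind a value were 83 for the assembled locus and 107 for the piwi-like gene, both in DMNT library 3.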
